A study of Mus musculus with 20 samples.

Results

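The genes described here are 32 genes of the lysosome and of autophagy, among 55401 genes in the deposited count table. They were listed by name, with earlier results of these data known, and cathepsins were left out. Each symbol matched 1 gene identifier of the table. They comprise 7 hydrolases, 4 genes for lipid handling and enzyme cofactors, 4 membrane proteins, 2 transcription factors, 6 subunits of the lysosomal proton pump, 4 genes of the autophagy core machinery and 5 genes for Atg8 proteins or their receptor.

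Lysosomes are acidic compartments in which hydrolases break down lipids, sugars and proteins, and the vacuolar ATPase (V-ATPase) pumps the protons that keep them acidic. In autophagy, Atg proteins build a double membrane around cytoplasmic cargo, Atg8 family proteins are bound to it, and the closed vesicle fuses with a lysosome. Many genes of the pathway carry a site for the transcription factors TFEB and TFE3, which enter the nucleus when nutrients are scarce. In white fat the pathway degrades lipid droplets and organelles in adipocytes, and macrophages of the tissue are rich in lysosomes.

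The libraries are polyA RNA of mouse eWAT, the fat pad on the epididymis. In the study, 10 libraries came from random food restriction, in which intermittent fasting was joined with a 5% cut in calories (Restricted), and 10 from the control diet (Control). The labels also mark libraries for contamination with spermatocytes, the germ cells of the testis that are in meiosis: Yes for 3 Restricted and 7 Control libraries, No for 7 Restricted and 3 Control libraries. Strain, sex, age and the length of the diet are not given in the labels. No label tells if each library is a separate animal, and so the p-values cover the spread between libraries only, part of which may be technical. The tissue label says eWAT and the extraction text QUAD. The tissue label is followed here.

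Libraries held 14306528 to 44061508 counts. The 10 adipocyte markers summed to 38622 to 53526 counts per 1000000 counts (CPM) in Restricted libraries and to 42105 to 54638 CPM in Control libraries, and none was at 0 in all libraries. Skeletal muscle markers stood apart in 6 libraries, Restricted 1 and Control 1 to 5, and their sum was highest in Restricted 1 at 3302 CPM. Restricted 1 also had the lowest adipocyte sum. Of the 6, Control 3 was marked No for contamination and the others Yes. The muscle sum was 35.4 to 3302 CPM (median 505) in libraries marked Yes and 22.8 to 1440 CPM (median 51.9) in those marked No. The sum of 10 epididymis markers was 351 CPM in Control 1 and 74.1 CPM in Control 6, with a Control median of 6.17 CPM. In Restricted libraries that sum was 1.92 to 9.49 CPM. The RNA integrity number was 6.5 to 7.9 in 8 Restricted libraries and 7.1 to 7.9 in 9 Control libraries. The sum of 10 germ cell markers was 2.96 to 112 CPM (median 12.0) in libraries marked Yes and 3.15 to 39.2 CPM (median 5.05) in libraries marked No. These ranges overlapped, so the label did not fully part the libraries by these markers, which were not chosen for spermatocytes alone.

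Restriction was accompanied by higher transcript levels of 4 of the 32 genes. These were Npc2, a cholesterol carrier of the lysosome lumen, Glb1, the lysosomal beta-galactosidase, Map1lc3b, an Atg8 protein of the autophagosome membrane, and Gusb, the lysosomal beta-glucuronidase. None of the 32 fell. All 32 passed the filter on low counts and were tested by edgeR's quasi-likelihood test, in a model with diet and contamination label, with Benjamini-Hochberg adjustment over 15986 genes. The 4 higher genes are 12.5% of the 32, beside 6.31% of all tested genes called higher and 7.29% called lower at an adjusted p under 0.05. At an unadjusted p under 0.05, 9 of the 32 were higher and 1, Lipa, was lower, beside 14.4% of all tested genes higher and 13.9% lower at that threshold. DESeq2 called 5 higher and limma-voom 4, and both called 0 lower. Of the 15986 genes, DESeq2 called 1333 higher and limma-voom 862.

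Differences were small across the group. The log2 fold change (Restricted over Control) was under 0.2 in size for 29 of the 32 genes, with standard errors of 0.0388 to 0.099. It was positive for 25 and negative for 7, with a median of 0.0848, where 51.9% of all tested genes were positive and their median was 0.0088. Without Restricted 1, 22 were positive, the median was 0.0637, and 2 genes, Glb1 and Npc2, were called higher, beside 4.86% of all tested genes called higher and 6.29% lower. The count was also 2, the same pair, without Restricted 3, Restricted 9, Control 2, Control 5, Control 6 or Control 7. In the 14 libraries without muscle transcripts the median was 0.0608 and 1 gene, Glb1, was called, beside 2.64% of all tested genes called higher and 3.28% lower.

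**Figure D1:**
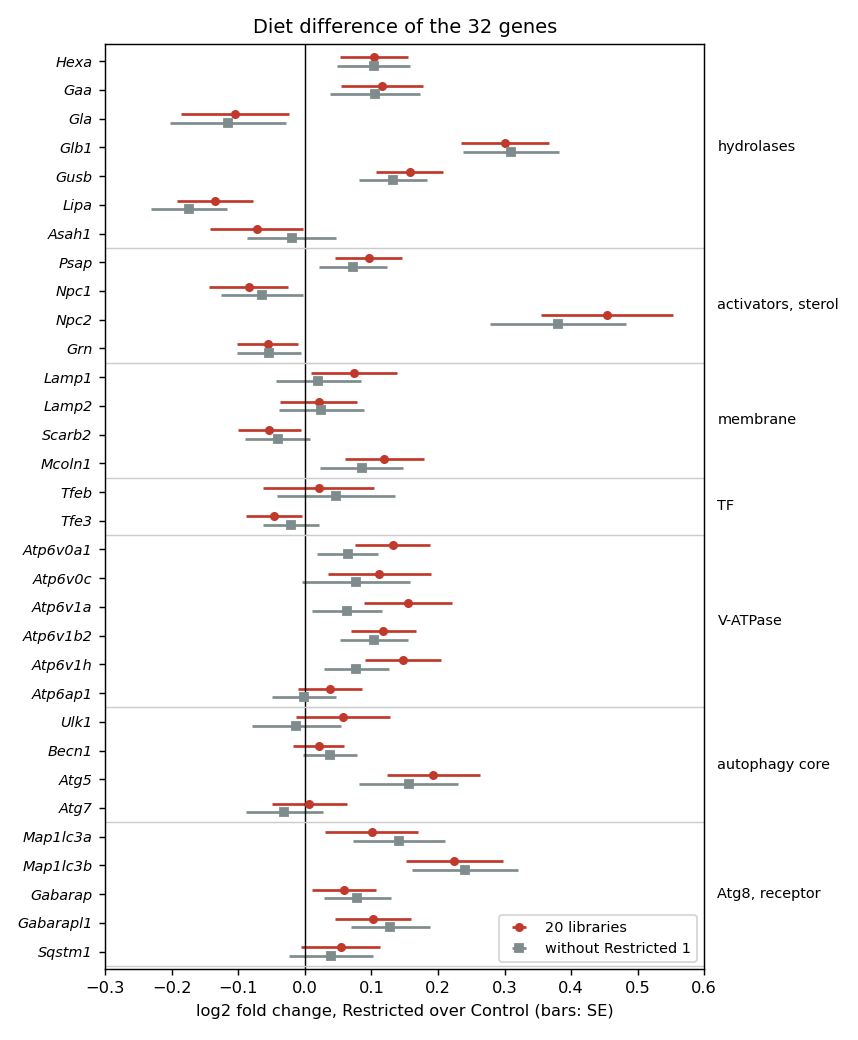
Log2 fold change by diet (x axis, Restricted over Control) of each of the 32 genes, ordered by role, in all 20 libraries (circles) and without Restricted 1 (squares); bars are standard errors. Npc2 and Glb1 lie farthest to the right under both, and the V-ATPase genes lie nearer to 0 without Restricted 1.

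Markers of some cell types moved with the diet. The shares of all tested genes called were 6.31% higher and 7.29% lower. Of 17 macrophage markers, 14 fell and 0 rose, and their sum was 1002 to 1786 CPM in Restricted libraries against 1613 to 2257 CPM in Control libraries. Of 8 progenitor markers, 5 fell and 0 rose, with sums of 1031 to 1656 CPM in Restricted and 1765 to 2352 CPM in Control libraries, which did not overlap. Of 10 adipocyte markers, 2 rose and 0 fell. Of the muscle markers 7 were tested and 0 called, and of the epididymis markers 2 were tested and 0 called. Only 1 germ cell marker was tested, and it was called higher. The part of these shifts in the values of the 32 genes was not tested. In bulk tissue, fewer cells of a type and less RNA per cell cannot be told apart.

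Among the hydrolases, 2 of 7 rose and 0 fell. Glb1 removes terminal galactose from glycolipids and glycoproteins, and lies on chromosome 9 from 114401076 to 114474377, plus strand, in build GRCm38. It had 47.5, 50.7 and 63.3 CPM (lowest, median and highest) in Restricted libraries, against 36.7, 43.1 and 46.9 CPM in Control libraries. The groups did not overlap, with Restricted 3 the lowest of its group and Control 9 the highest of the other. Glb1 was the 1 gene of the 32 whose groups did not overlap, which is 3.12%, beside 0.951% of all tested genes (0.363% higher and 0.588% lower in every Restricted library). Its log2 fold change was 0.30 ± 0.066 (SE), with an edgeR adjusted p of 0.0046. Its call held without each library in turn, with adjusted p-values of 0.00341 to 0.0189.

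Glb1 shares its strand with Tmppe, a gene within it that had 4242 counts in all, beside 23474 for Glb1. Tmppe had a log2 fold change of −0.19 with an edgeR adjusted p of 0.209. Reads of both could be split by the counting.

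Gusb, on chromosome 5 from 129989011 to 130003049, minus strand, cleaves glucuronic acid from glycosaminoglycans. It had 75.7, 83.4 and 95.9 CPM in Restricted libraries and 64.5, 74.1 and 79.1 CPM in Control libraries. In all, 8 of 10 Restricted libraries were above every Control library, and Restricted 2 was the lowest of its group. Gusb had a log2 fold change of 0.16 ± 0.050 (SE), with an edgeR adjusted p of 0.0418. This call is close to the threshold: it was lost without any 1 of 12 libraries (Restricted 1, 3, 8 or 9, or Control 2 to 9), and the adjusted p was highest, at 0.0985, without Restricted 1, where the log2 fold change was 0.13.

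The other 5 hydrolases did not pass the test. Hexa, a subunit of the hexosaminidase that degrades gangliosides, had 145, 155 and 180 CPM in Restricted and 129, 146 and 154 CPM in Control libraries, and 6 Restricted libraries exceeded all Control libraries. Its log2 fold change was 0.10, with an edgeR adjusted p of 0.182. Gaa, which degrades glycogen in the lysosome, had 163, 178 and 211 CPM in Restricted and 151, 160 and 191 CPM in Control libraries (log2 fold change 0.12, edgeR adjusted p 0.227). All 10 Restricted libraries were above the Control median of Gaa, although only 2 were above every Control library.

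Lipa, Asah1 and Gla had negative log2 fold changes. Lipa is the lysosomal acid lipase, which frees cholesterol and fatty acids from lipoprotein and droplet lipids. It had 60.4, 69.9 and 74.2 CPM in Restricted and 60.5, 72.3 and 86.3 CPM in Control libraries, largely overlapping. Lipa had a log2 fold change of −0.14 ± 0.056 (SE), with an unadjusted p of 0.0259 and an edgeR adjusted p of 0.119. Without Restricted 1 it was −0.17, with an adjusted p of 0.0537. Asah1, the acid ceramidase, had 66.3, 86.8 and 95.3 CPM in Restricted and 76.7, 82.5 and 103 CPM in Control libraries. Restricted 1 was the lowest library of all for Asah1, and the diet difference was −0.072 (log2) with it and −0.020 without it. Gla, the alpha-galactosidase that degrades globotriaosylceramide, was the one gene of the 32 with a mean under 10 CPM in both diets, at 5.92, 7.41 and 8.21 CPM in Restricted and 6.95, 8.21 and 8.96 CPM in Control libraries (log2 fold change −0.11, edgeR adjusted p 0.427).

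Of the 4 genes for lipid handling and enzyme cofactors, Npc2 rose and the other 3 did not pass the test. Npc2, on chromosome 12 from 84754562 to 84773152, minus strand, binds cholesterol in the lumen and passes it to the membrane protein Npc1. It had 741, 926 and 1227 CPM in Restricted libraries, against 581, 660 and 784 CPM in Control libraries. The values of 7 Restricted libraries were above every Control library, with Restricted 10 and Restricted 1 the highest. Npc2 had a log2 fold change of 0.45 ± 0.099 (SE), the largest of the 32, with an edgeR adjusted p of 0.00438. Without Restricted 1 it was 0.38 ± 0.103 (SE), with an adjusted p of 0.0205, and Npc2 stayed called without each library in turn. In the 14 libraries without muscle transcripts it was 0.41, with an adjusted p of 0.0726.

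Npc1, the partner of Npc2 in the lysosome membrane, had 39.8, 46.3 and 53.8 CPM in Restricted and 40.4, 45.5 and 56.2 CPM in Control libraries. Its groups overlapped almost fully, with a log2 fold change of −0.084 ± 0.059 (SE) and an edgeR adjusted p of 0.372. On the opposite strand Npc1 overlaps Rmc1, which had 22472 counts beside 23359 for Npc1. The strand setting of the counting is not given in the sources used here, so some reads of this pair may be counted for the other gene or for neither. The overlap was taken from gene coordinates, and shared exons were not examined. Psap, the precursor of the saposins that help hydrolases reach their lipids, had 1932, 2026 and 2330 CPM in Restricted and 1717, 1880 and 2011 CPM in Control libraries. Its Restricted libraries were all above the Control median and 5 were above every Control library (log2 fold change 0.10, edgeR adjusted p 0.222). Grn, whose product progranulin is cut into granulins in the lysosome, had 366, 378 and 424 CPM in Restricted and 368, 398 and 440 CPM in Control libraries (log2 fold change −0.056, edgeR adjusted p 0.454).

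**Figure D2:**
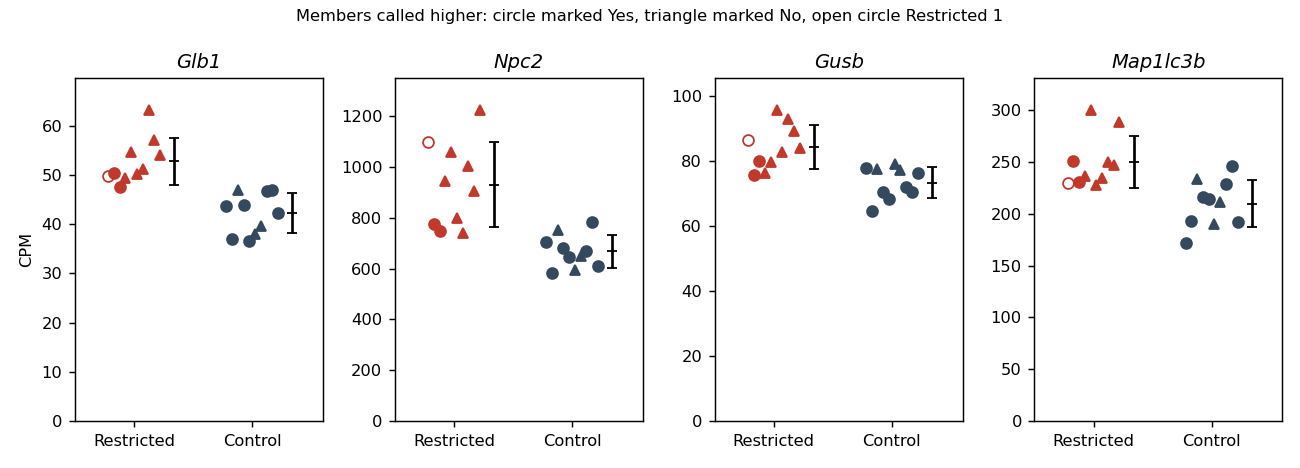
CPM (y axis, from 0) of the 4 genes called higher, with 1 point per library, 10 Restricted on the left and 10 Control on the right of each panel; circles are libraries marked Yes, triangles those marked No, the open circle is Restricted 1, and the bars give the mean and SD of each diet. Glb1 has no Restricted point at or below the highest Control point of 46.9 CPM, while the other 3 genes overlap.

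None of the 4 membrane genes passed edgeR's test, and none had an unadjusted p under 0.05. Lamp1, an abundant glycoprotein of the lysosome membrane, had 562, 683 and 790 CPM in Restricted and 582, 646 and 719 CPM in Control libraries. Both the lowest and the highest library of Lamp1 were Restricted, Restricted 3 and Restricted 1. The diet difference (log2) was 0.074 with Restricted 1 and 0.020 without it. Lamp2, its relative that also serves chaperone-mediated autophagy, had 166, 185 and 223 CPM in Restricted and 157, 180 and 192 CPM in Control libraries (log2 fold change 0.021). Scarb2, which carries glucocerebrosidase to the lysosome, had 134, 144 and 164 CPM in Restricted and 135, 148 and 170 CPM in Control libraries (log2 fold change −0.054). Mcoln1, a calcium channel of the lysosome, had 49.8, 52.8 and 67.0 CPM in Restricted and 46.0, 50.5 and 55.4 CPM in Control libraries (log2 fold change 0.12 ± 0.059 SE, edgeR adjusted p 0.192), and 3 Restricted libraries were above every Control library.

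The genes for the transcription factors did not pass the test. Tfeb had 20.01, 23.3 and 28.5 CPM in Restricted and 19.9, 22.2 and 28.0 CPM in Control libraries, nearly the same range. The fitted difference was 0.021 ± 0.083 (log2, SE), with an edgeR adjusted p of 0.904. Tfe3 had 51.4, 57.7 and 63.1 CPM in Restricted and 55.8, 58.6 and 60.7 CPM in Control libraries. Its Control libraries were the least variable of the 32 genes, with a coefficient of variation of 2.71%. Tfe3 had a log2 fold change of −0.047 ± 0.042 (SE), with an edgeR adjusted p of 0.497. Transcript levels do not measure where these proteins are in the cell.

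TFEB and TFE3 bind DNA at the palindrome TCACGTGA, whose core CACGTG is the E-box. These were searched in RefSeq windows (build GRCm38.p6) from 250 bases before to 50 bases after each RefSeq start, on both strands. The core is part of the palindrome. Of the 32 genes, 26 had a window. The core was in 8 of these 26 genes (30.77%), beside 8.093% of all genes with a window: Atg5, Atg7, Atp6v1a, Gaa, Gla, Glb1, Lamp1 and Mcoln1. The palindrome was in 3 (11.54%, beside 1.125% of all genes): Atp6v1a, Gla and Mcoln1. Lamp1 had 4 copies of the core. Shown are the 3 genes with the palindrome, with both copies in Gla, and Glb1 and Atg5, which had the smallest p-values by diet among the 8; each runs 5′ to 3′ on the gene's strand, with its distance from the start counted to the first base of the core, and with the palindrome or, where it is absent, the core in capitals.
Glb1, chr9:114401020-114401045, plus strand, 48 bases before the start: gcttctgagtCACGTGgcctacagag
Atg5, chr10:44268315-44268340, plus strand, 14 bases before the start: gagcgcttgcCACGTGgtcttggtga
Mcoln1, chr8:3500464-3500489, plus strand, 45 bases before the start: gcgccccgcTCACGTGAccgcggcgc
Atp6v1a, chr16:44139375-44139400, minus strand, 131 bases before the start: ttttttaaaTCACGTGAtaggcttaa
Gla, first copy, chrX:134601217-134601242, minus strand, 227 bases before the start: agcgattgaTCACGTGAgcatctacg
Gla, second copy, chrX:134601184-134601209, minus strand, 194 bases before the start: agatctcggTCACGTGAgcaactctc

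These matches describe the windows and are not sites shown to be bound. The RefSeq start can differ from the start of the counted gene. The stretches of Atp6v1a and Mcoln1 lie within the deposited coordinates of these genes (chr16 from 44085402 to 44139705, chr8 from 3500457 to 3515232). Of the 4 genes that rose, Glb1 held the core, while the windows of Npc2, Gusb and Map1lc3b held none of the letters searched. Of the 8 genes with the core, 1 was called by diet, and their log2 fold changes ran from −0.11 in Gla to 0.30 in Glb1.

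All 6 V-ATPase genes had positive log2 fold changes, but none passed edgeR's test, and DESeq2 and limma-voom called 0 of 6. At an unadjusted p under 0.05, 4 of the 6 were higher with all 20 libraries, beside 14.4% of all tested genes. Without Restricted 1 the edgeR adjusted p-values of these 4 were 0.205 (Atp6v1b2), 0.329 (Atp6v1h), 0.395 (Atp6v0a1) and 0.482 (Atp6v1a). The pump has a membrane sector (V0) and a catalytic sector that splits ATP (V1). Atp6v1h, a regulatory subunit of V1, had 79.7, 93.9 and 117 CPM in Restricted and 79.1, 85.5 and 92.6 CPM in Control libraries. Restricted 1 had the 117 CPM and the next Restricted library 97.6 CPM. Atp6v1h had a log2 fold change of 0.15 ± 0.057 (SE), with an edgeR adjusted p of 0.0908. It was 0.077 without Restricted 1, with an adjusted p of 0.329, and was called only without Restricted 2, with an adjusted p of 0.0167.

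Restricted 1 was the highest of the Restricted libraries in 4 of the 6 V-ATPase genes. Atp6v1a, the catalytic subunit, had 98.3, 107 and 147 CPM in Restricted and 93.8, 103 and 110 CPM in Control libraries. Restricted 1 had the 147 CPM, against at most 126 CPM in the other 9 Restricted libraries. The fitted difference (log2) was 0.15 with Restricted 1 and 0.063 without it. Atp6v0a1, the large subunit of V0, had 143, 153 and 193 CPM in Restricted and 128, 146 and 153 CPM in Control libraries, again with Restricted 1 on top. The fitted difference (log2) was 0.13 with Restricted 1 and 0.064 without it. The median of the 6 was 0.1249 with Restricted 1 and 0.0705 without it. Beside this, the sum of muscle markers was 3302 CPM in Restricted 1 and at most 107 CPM in the other Restricted libraries. Control 1 to 5 also held muscle transcripts, with sums of 952 to 2047 CPM, against 22.8 to 55.1 CPM in Control 6 to 10. The values of these 2 sets of Control libraries overlapped, as Atp6v1a had 94.8 to 110 CPM in Control 1 to 5 and 93.8 to 105 CPM in Control 6 to 10. Likewise Atp6v0a1 had 128 to 152 CPM in Control 1 to 5 and 134 to 153 CPM in Control 6 to 10. In the same order, Atp6v1h had 79.1 to 92.6 and 85.0 to 91.5 CPM, and Atp6ap1 had 156 to 183 and 169 to 185 CPM. Atp6v1b2 had 113 to 133 and 122 to 142 CPM, with medians of 124 and 138 CPM. For Atp6v0c the sets barely met, at 53.1 to 58.77 CPM in Control 1 to 5 and 58.74 to 67.6 CPM in Control 6 to 10. The part of muscle transcripts in these values was not tested.

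Atp6v1b2, the other subunit that binds ATP in V1, depended less on that library. It had 130, 139 and 154 CPM in Restricted and 113, 128 and 142 CPM in Control libraries, and all 10 Restricted libraries were above the Control median. The log2 fold change was 0.12 with Restricted 1 and 0.10 without it (edgeR adjusted p 0.118 and 0.205). Atp6v0c, the subunit of the proton-carrying ring, had 48.3, 67.3 and 74.2 CPM in Restricted and 53.1, 58.8 and 67.6 CPM in Control libraries, with Restricted 5 the lowest of all (log2 fold change 0.11, edgeR adjusted p 0.363). Atp6ap1, an accessory protein of the pump, had 163, 174 and 199 CPM in Restricted and 156, 174 and 185 CPM in Control libraries (log2 fold change 0.038, edgeR adjusted p 0.658).

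**Figure D3:**
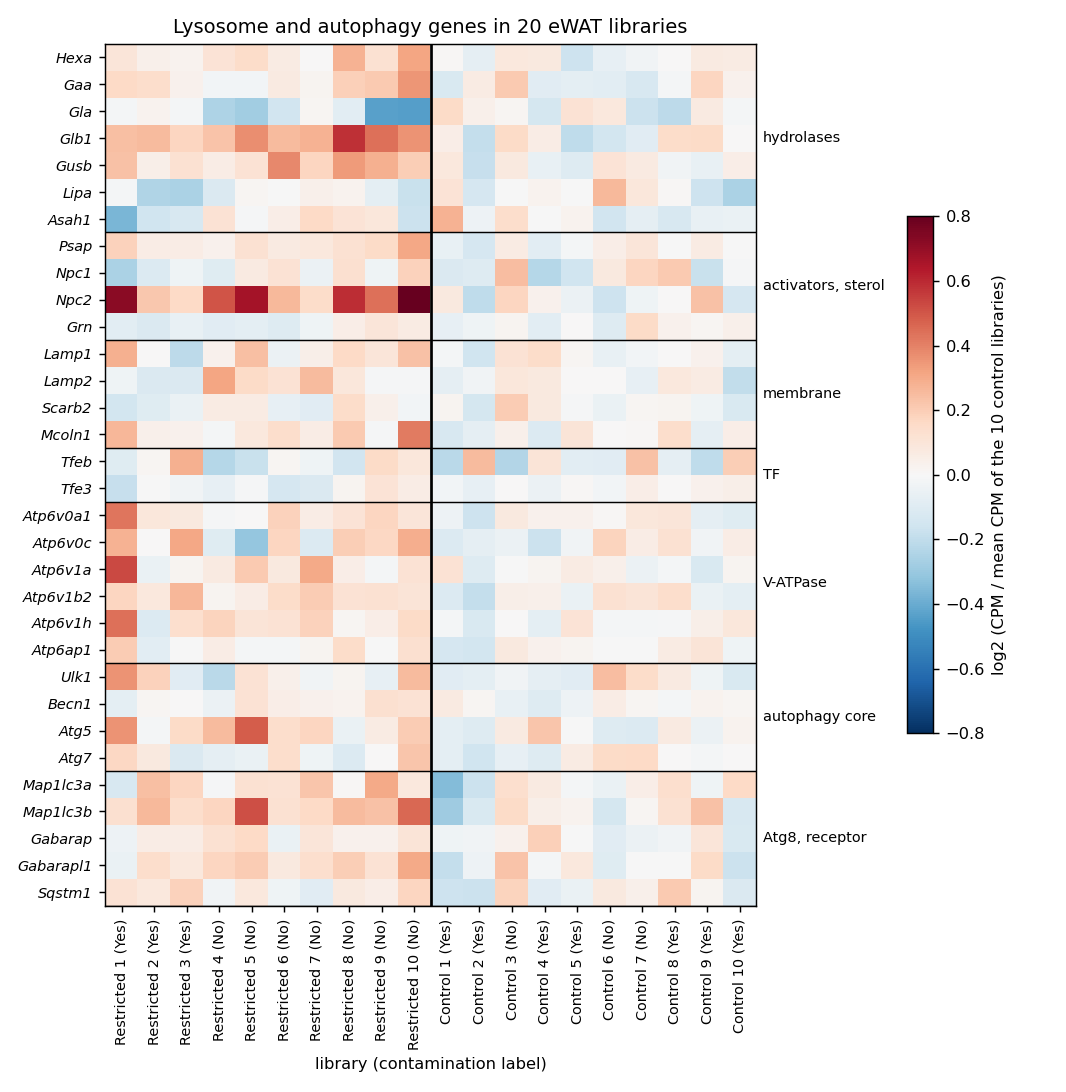
Log2 of each library's CPM over the mean CPM of the 10 Control libraries (colour, red higher and blue lower) for the 32 genes in rows and the 20 libraries in columns, Restricted left and Control right of the black line, with the contamination label in brackets. Glb1 and Npc2 are red in every Restricted column, and Restricted 1 is the darkest column in Atp6v0a1, Atp6v1a and Atp6v1h.

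None of the 4 core autophagy genes passed edgeR's test, 1 had an unadjusted p under 0.05, and DESeq2 called 1 of them, Atg5. Atg5, part of the complex that attaches Atg8 proteins to lipid, had 23.1, 26.8 and 33.6 CPM in Restricted and 22.3, 23.6 and 28.0 CPM in Control libraries. Restricted 5 and Restricted 1 were the highest, and 3 Restricted libraries were above every Control library. Atg5 had a log2 fold change of 0.19 ± 0.070 (SE), with an edgeR adjusted p of 0.0684. It passed the threshold without Restricted 2, Restricted 8 or Control 4, with an adjusted p as low as 0.0313, and was 0.16 without Restricted 1, with an adjusted p of 0.184.

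Ulk1, the kinase that starts autophagy, had 59.7, 70.7 and 88.8 CPM in Restricted and 63.7, 66.7 and 82.4 CPM in Control libraries. Restricted 1 had the 88.8 CPM, and the fitted difference (log2) was 0.057 with it and −0.013 without it. Becn1, a subunit of the lipid kinase that marks the forming membrane, had 75.7, 81.5 and 87.3 CPM in Restricted and 74.2, 80.7 and 83.8 CPM in Control libraries. Becn1 had the smallest standard error of the 32 genes, with a log2 fold change of 0.021 ± 0.0388 (SE). Atg7, the enzyme that activates Atg8 proteins for their attachment, had 73.8, 79.3 and 93.3 CPM in Restricted and 71.8, 79.8 and 89.6 CPM in Control libraries, and a log2 fold change of 0.0069 ± 0.057 (SE).

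Of the genes for Atg8 proteins and their receptor, 1 of 5 rose and 0 fell, and all 5 had positive log2 fold changes. Map1lc3b, on chromosome 8 from 121590361 to 121598760, plus strand, encodes LC3B. It had 228, 242 and 301 CPM in Restricted libraries, against 172, 213 and 247 CPM in Control libraries. In all, 5 Restricted libraries were above every Control library, with Restricted 5 the highest and Control 1 the lowest of the 20. Map1lc3b had a log2 fold change of 0.22 ± 0.073 (SE), with an edgeR adjusted p of 0.0438. The call was lost without any 1 of 13 libraries (Restricted 1, 2, 3, 5, 8, 9 or 10, or Control 1, 2, 5, 6, 7 or 10). Without Restricted 1 the log2 fold change was 0.24, with an adjusted p of 0.0551, and the adjusted p was highest, at 0.125, without Control 6. On the opposite strand Map1lc3b overlaps Zcchc14, which had 37770 counts in all, beside 113424, and a log2 fold change of −0.099. Without a stated strand setting, some reads of the pair may be counted for the other gene or for neither.

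The other 4 genes of this group did not pass the test. Map1lc3a, which encodes LC3A, had 163, 193 and 220 CPM in Restricted and 140, 180 and 199 CPM in Control libraries. Restricted 1 was the lowest Restricted library of Map1lc3a, and the log2 fold change was 0.10 with it and 0.14 without it. Gabarapl1, an Atg8 protein of the GABARAP branch, had 176, 201 and 226 CPM in Restricted and 160, 182 and 214 CPM in Control libraries, and 9 Restricted libraries were above the Control median. Restricted 1 was again the exception, and the log2 fold change was 0.10 with it and 0.13 without it. Gabarap had 259, 280 and 301 CPM in Restricted and 247, 264 and 307 CPM in Control libraries (log2 fold change 0.058, edgeR adjusted p 0.459). Sqstm1, the receptor p62 that brings ubiquitin-tagged cargo to Atg8 proteins, had 374, 422 and 453 CPM in Restricted and 355, 395 and 461 CPM in Control libraries (log2 fold change 0.054, edgeR adjusted p 0.595).

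The diet comparison was repeated within each contamination label. Of the libraries with muscle transcripts, Restricted 1 and Control 1, 2, 4 and 5 are marked Yes and Control 3 is marked No. In libraries marked No (7 Restricted, 3 Control), 1 of the 32 was called higher, Glb1, beside 0.863% of all tested genes called higher and 1.78% lower. Glb1 had a log2 fold change of 0.40 there, with an edgeR adjusted p of 0.0415, and Npc2 one of 0.53, with an adjusted p of 0.073. In libraries marked Yes (3 Restricted, 7 Control), edgeR called 0 of the 32, beside 0.601% of all tested genes called higher and 1.33% lower. At an unadjusted p under 0.05, 7 of the 32 were higher and 1 was lower, beside 9.44% of all tested genes higher and 9.53% lower. There the log2 fold change of Glb1 was 0.22 and that of Npc2 was 0.39. Without the label as a term, 6 of the 32 were called higher, the 4 named above with Atp6v1b2 and Atg5. Over all 15986 genes, 1330 were called higher in that fit, beside 1008 with the label as a term.

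The product of diet and label tested whether the diet differences themselves differed between the labels. EdgeR called 0 of the 32 for it and 0 of all 15986 genes (0% called), with 4 of the 32 at an unadjusted p under 0.05, beside 5.45% of all tested genes. The 4 were Ulk1, Sqstm1, Atp6v1b2 and Asah1. Ulk1 averaged 77.5 CPM in Restricted and 66.5 CPM in Control libraries marked Yes, and 70.4 CPM in Restricted and 75.7 CPM in Control libraries marked No (unadjusted p 0.0196, edgeR adjusted p 0.859). The other 3 genes had edgeR adjusted p-values of 0.859 as well. Only 3 Restricted libraries are marked Yes. Of these, Restricted 1 was the highest for Ulk1 at 88.8 CPM and the lowest for Asah1 at 66.3 CPM. For Sqstm1 and Atp6v1b2 Restricted 1 lay between the others.

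The label itself was associated with 1 of the 32 genes. Npc1 averaged 44.4 ± 4.30 CPM in libraries marked Yes and 50.3 ± 3.79 CPM in libraries marked No (SD, n = 10 each). With diet in the model its log2 fold change (Yes over No) was −0.21, with an edgeR adjusted p of 0.0359, beside 0.269% of all tested genes called lower and 5.04% called higher in Yes, or 5.3% in either direction. At an unadjusted p under 0.05, 4 of the 32 were lower in Yes and 0 were higher, beside 4.31% of all tested genes lower and 9.19% higher. Without Restricted 1 the count called by label was 1 as well. The sum of muscle markers also differed by label, with medians of 505 CPM (Yes) and 51.9 CPM (No). Label and muscle transcripts were not separated in this comparison.

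Levels between the genes were compared per length, as CPM per kilobase of the length deposited with each gene, over all 20 libraries. That length may differ from the length of the transcripts present, and the order depends on it. Psap was the most abundant, with a median of 716 CPM per kilobase, followed by Lamp1 with 247, Map1lc3a with 159, Gabarap with 149, Npc2 with 138, Sqstm1 with 123 and Grn with 111. The least abundant were Tfe3 with 6.27, Npc1 with 4.10, Tfeb with 3.99 and Gla with 2.44. Psap lay above Lamp1, and Lamp1 above Map1lc3a, with no overlap between libraries. Of the 31 neighbouring pairs in this order, 5 did not overlap in range and the other 26 did. Within each library, which both genes of a pair share, 9 pairs kept the same order in all 20 libraries and 22 did not. The 9 include 4 whose ranges overlapped: Grn above Gabarapl1, Gabarapl1 above Hexa, Hexa above Atp6ap1 and Atp6v1h above Mcoln1. Among the Atg8 genes, Map1lc3b, the one that rose, had the lowest value at 30.6 CPM per kilobase, over a deposited length of 7517 bases. In CPM it was not the lowest. Its medians of 242 CPM (Restricted) and 213 CPM (Control) were above those of Map1lc3a (193 and 180 CPM) and Gabarapl1 (201 and 182 CPM).

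**Figure D4:**
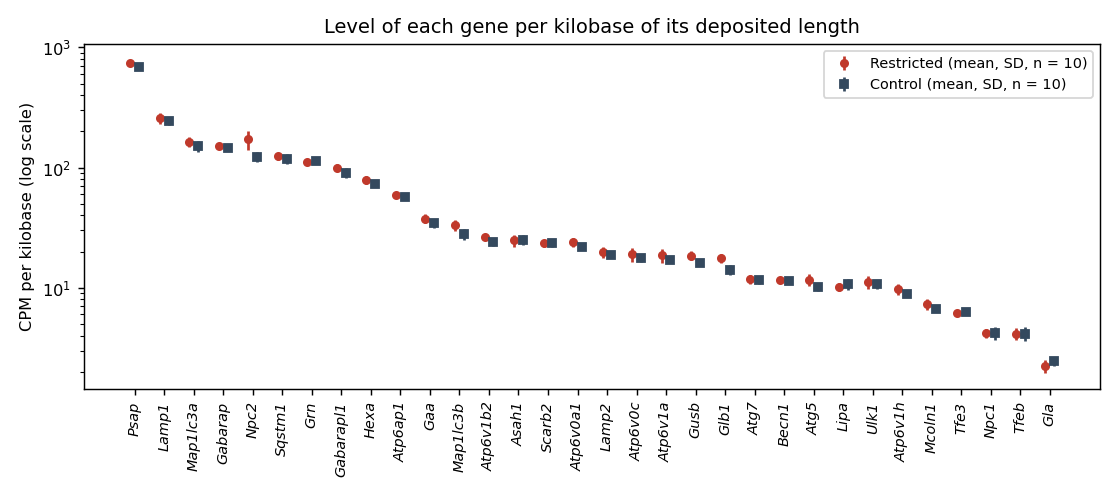
CPM per kilobase of deposited gene length (y axis, log scale) of the 32 genes, from the highest to the lowest median. Points are means and bars SDs of 10 Restricted (circles) and 10 Control libraries (squares). Psap, with a median of 716, is at the top and Gla, with 2.44, at the bottom, and the separation of the diets is visible for Npc2 and Glb1.

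The genes varied little between libraries of a diet. The coefficient of variation of CPM had a median of 8.93% over the 32 genes in Restricted libraries and of 7.46% in Control libraries. It was 7.96% in Restricted libraries without Restricted 1. In Restricted libraries the lowest was Gabarap at 4.72% and the highest Npc2 at 17.92%. In Control libraries the highest was Tfeb at 13.47%. Restricted 1 was the highest of its group for 6 genes and the lowest for 7. Restricted 10 was the highest for 8, among them Npc2, Psap and Hexa, and Control 2 was the lowest of its group for 12.

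A further 139 genes of the pathway were listed by role, of which 138 were tested. By diet 23 rose (16.7%) and 10 fell (7.25%), beside 6.31% of all tested genes called higher and 7.29% lower. By list, 11.1% to 33.3% rose and 0% to 17.2% fell, beside the same shares. Without Restricted 1, 12 were higher and 10 lower, beside 4.86% and 6.29% of all tested genes. The higher count was also 12 without Control 7 and was 14 without Control 6, where 671 and 668 of 15986 genes were higher. In the 14 libraries without muscle transcripts 9 were higher and 5 lower, beside 2.64% and 3.28% of all tested genes. For each list, up to 4 called genes with the smallest p-values are named.

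Among 29 other hydrolases and their activators, 6 rose and 5 fell; without Restricted 1 the counts were 4 and 3. Without Control 6 or Control 7, 2 were higher, and 3 were lower also without Restricted 2 or 6 or Control 1, 2, 3 or 7. Pla2g15, a lysosomal phospholipase, had 40.5, 45.6 and 55.6 CPM in Restricted and 52.8, 59.3 and 71.0 CPM in Control libraries (log2 fold change −0.36, edgeR adjusted p 0.00145). Lgmn, the asparagine-specific protease legumain, had 78.2, 80.1 and 101 CPM in Restricted and 91.6, 96.7 and 129 CPM in Control libraries (log2 fold change −0.32, edgeR adjusted p 0.00544). For both genes, 8 Restricted libraries were below every Control library. Galc, which degrades galactosylceramide, was higher (log2 fold change 0.25), and Ids, an iduronate sulfatase, was lower (−0.22). The macrophage markers above fell in the same libraries, and their part in these values was not tested.

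Of 6 genes that sort enzymes to the lysosome by mannose 6-phosphate and related routes, 2 rose. Igf2r, a receptor for that tag, had 122, 140 and 167 CPM in Restricted and 108, 119 and 124 CPM in Control libraries, with 9 Restricted libraries above every Control library (log2 fold change 0.25, edgeR adjusted p 0.00341). Gnptab, a subunit of the enzyme that adds the tag, had a log2 fold change of 0.31; it was 0.15 without Restricted 1, with an adjusted p of 0.149, and the call was also lost without Restricted 10, Control 2 or Control 7. Of 19 further membrane genes, 3 rose and 1 fell. Ostm1, a partner of the lysosomal chloride transporter, had 39.3, 43.1 and 48.7 CPM in Restricted and 32.6, 35.0 and 40.9 CPM in Control libraries (log2 fold change 0.26, edgeR adjusted p 0.000832). Tpcn2, a cation channel, was lower (−0.27; the call was lost without Control 6, with an adjusted p of 0.0795). Laptm4b, a protein of lysosome and endosome membranes, was called higher with a log2 fold change of 0.22, lost without Restricted 1, Control 6 or Control 7 (highest adjusted p 0.0831). Mfsd8, which is mutated in a lysosomal storage disease of neurons, was called higher with 0.26, which was 0.17 without Restricted 1 and lost there, with an adjusted p of 0.195, and without 12 other libraries. Without Restricted 1 or Control 7, 1 membrane gene was higher, and 0 to 3 were lower without each library in turn.

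Of 12 further V-ATPase genes, 4 rose and 1 fell, and 10 had positive log2 fold changes. Without Restricted 1, 2 were higher and 1 lower, and without each library in turn 2 to 6 were higher. Atp6v0e had 104, 113 and 121 CPM in Restricted and 80.5, 97.1 and 109 CPM in Control libraries, and Atp6v0b had 103, 109 and 129 CPM in Restricted and 87.8, 98.8 and 105 CPM in Control libraries. Both encode small V0 subunits, with log2 fold changes of 0.22 and 0.20 and edgeR adjusted p-values of 0.00662 and 0.0114, and 8 Restricted libraries were above every Control library in each. Tcirg1, the V0 subunit typical of osteoclasts, was lower, with 35.1, 45.1 and 47.7 CPM in Restricted and 43.5, 52.9 and 58.4 CPM in Control libraries (log2 fold change −0.28, edgeR adjusted p 0.00967). Atp6v1c1, a subunit of V1, had a log2 fold change of 0.16 and was not called without Restricted 1, where the adjusted p was 0.0744.

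Of 45 further autophagy genes, 5 rose and 2 fell; without Restricted 1, Control 6 or Control 7, 2 were higher. Without Restricted 1, 3 were lower. Optn, a receptor that links cargo to Atg8 proteins, had 69.3, 81.4 and 101 CPM in Restricted and 44.2, 55.9 and 68.5 CPM in Control libraries, with no overlap (log2 fold change 0.54, edgeR adjusted p 0.000254). Ambra1, which acts with Becn1, had 42.2, 46.4 and 51.7 CPM in Restricted and 49.4, 53.3 and 57.3 CPM in Control libraries, and 9 Restricted libraries were below every Control library (log2 fold change −0.18, edgeR adjusted p 0.00883). Rubcn, an inhibitor of autophagosome maturation, had a log2 fold change of −0.19, with an edgeR adjusted p of 0.0104. Wipi1, which binds the forming membrane, had a log2 fold change of 0.27; without Restricted 1 it was 0.16, with an adjusted p of 0.0746.

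Of 27 tested genes of nutrient sensing at the lysosome and of autophagy control, 3 rose and 1 fell. Lamtor5, a subunit of the Ragulator scaffold, had 34.6, 39.0 and 46.3 CPM in Restricted and 31.5, 34.2 and 37.1 CPM in Control libraries, and Rragc, a GTPase that Ragulator holds, had 145, 163 and 189 CPM in Restricted and 128, 138 and 152 CPM in Control libraries. Both had log2 fold changes of 0.24, with edgeR adjusted p-values of 0.00224 for Lamtor5 and 0.00548 for Rragc. Tsc1, an inhibitor of the kinase mTORC1, had a log2 fold change of −0.21; its call was lost without Restricted 3, Control 3 or Control 6, with an adjusted p of up to 0.0811. Deptor, another inhibitor of that kinase, had 0.36, which was 0.17 without Restricted 1, with an adjusted p of 0.27; its call was lost there and without 14 other libraries.

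**Figure D5:**
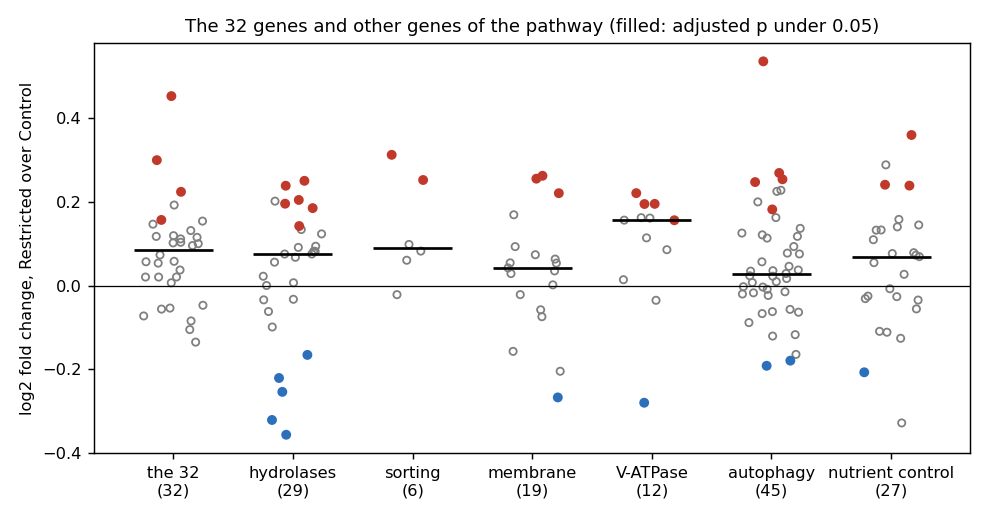
Log2 fold change by diet (y axis, Restricted over Control) of the 32 genes and of the other genes of the pathway by list, with the number tested in brackets; each point is a gene, filled where the edgeR adjusted p is under 0.05, and the line is the median. The 32 have 4 filled points, all above 0, and the hydrolases have 5 filled points below 0.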

How the data were processed

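PolyA RNA of mouse eWAT was read as 52-bp paired ends, per the labels' protocols. Build GRCm38, STAR, Salmon and bcl2fastq 4.0.3 are named, without roles, per the submitters' processing notes. The authors deposited whole-number counts per gene with coordinates and length. For the counting tool, annotation and strand setting, the sources used here give nothing. Of 55401 genes, 260 had no symbol. Symbols were matched by identifier.

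The members and lists were chosen with earlier results of these data known. Differences were tested in R 4.3.3 by edgeR 4.0.16 with TMM scaling and a quasi-likelihood fit on label and diet (two-sided, Benjamini-Hochberg at 0.05). The filterByExpr step, at a minimum count of 10 by diet, left 15986 genes. CPM are counts scaled to the TMM-adjusted total of tested genes, and marker sums use the plain library total. At 14306528 to 44061508 counts per library, the biological coefficient of variation common to all tested genes was 0.179. Counting error weighs more for members with few counts, such as Gla, with as few as 118 in a library, and Tfeb, with as few as 289. Libraries of one diet differed by more than sampling noise (lowest chi-square over degrees of freedom 9.17).

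Alternatives were DESeq2 1.42.0, limma-voom (limma 3.58.1), RLE and upper-quartile factors, no low-count filter, other model terms, subsets of libraries, and leaving out each library. Libraries without muscle transcripts are those with a mean log2 CPM of muscle markers of at most 2.5. Added after seeing the data was a fit to the 17 libraries with an RNA integrity number but without it as a term. All 32 genes could be named, and up to 4 called genes with the smallest p of each other list. The steps were tested on simulated data. Figures used Python 3.11.15 and matplotlib 3.10.9.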

Additional observations from a re-analysis of the deposited data

Results flagged for a closer look

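The highest library of a group lay apart from the other 9 by Dixon's criterion in 4 of 64 groups examined, the 32 genes in each diet, where chance gives about 1 in 20. Restricted 10 had 2330 CPM of Psap, and the next Restricted library 2139 CPM. Restricted 1 had 192.9 CPM of Atp6v0a1, and the next Restricted library 162.7 CPM. It also had 117.0 CPM of Atp6v1h, with 97.6 CPM in the next. Control 4 had 28.0 CPM of Atg5, and the next Control library 25.3 CPM. No cause was tested for any of the 4.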

How the results depend on the processing

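Of the 32 genes, 4 were called higher, a count within 1.5 times of that under RLE factors, upper-quartile factors and limma-voom (4 each), DESeq2 (5), no contamination term (6) and a term for replicate numbers 1 to 5 against 6 to 10 (3). It was 1 in libraries without muscle transcripts, 1 in those marked No, 0 in those marked Yes, 1 with the RNA integrity number, 2 in the same 17 libraries without that term, 2 with the muscle index as a term and 2 with no filter, and 2 to 5 without each library in turn. With the integrity number Npc2 was called and Glb1 had a log2 fold change of 0.31 and an adjusted p of 0.0575, beside 0.28 and 0.023 in the same 17 libraries without that term. The count called lower was 0 throughout. Over all genes, 2173 were called; the count was 947 without muscle transcripts, 423 in libraries marked No, 308 in those marked Yes, 399 with the integrity number and 1514 to 2297 without each library. The other pathway genes called were 23 higher and 10 lower, and 9 and 5 without muscle transcripts; without Restricted 1 they were 12 and 10. The causes were not tested.

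Same-numbered libraries of the diets did not deviate together (correlations of −0.085 to 0.134 over 10 pairs). These correlations show no pairing by number, but they cannot exclude one. With the replicate block, 2 of the 32 and 1388 of all genes were called, and no Restricted library correlated best with its own number.

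Uncalled genes changed sign in places. The log2 fold change without muscle transcripts was 0.0697 for Asah1, 0.0148 for Scarb2, −0.0057 for Atp6ap1, −0.0610 for Ulk1 and −0.0808 for Atg7. In libraries marked No it was 0.0822 for Asah1, −0.0216 for Tfeb, −0.0013 for Atp6v0c, −0.10 for Ulk1, −0.0638 for Atg7 and −0.0586 for Sqstm1. In libraries marked Yes it was −0.0774 for Lamp2 and −0.0116 for Becn1. It was −0.0285 for Lamp2 with the integrity number, −0.0094 in the same 17 libraries without it, and −0.0063 for Tfeb without the label. Leaving out single libraries gave −0.0107 to 0.0420 for Lamp2, −0.0356 to 0.0898 for Tfeb, −0.0014 to 0.0607 for Atp6ap1, −0.0129 to 0.11 for Ulk1 and −0.0311 to 0.0347 for Atg7.

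The standard errors of 0.0388 to 0.099 limit what differences of under 0.2 can show.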
